A study of Mus musculus with 8 samples.

Results

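Basement membranes are thin sheets of matrix that lie beneath epithelia and around vessels, muscle cells and nerves, and in the gut wall stromal cells make many of their components. Of the 53801 genes in the table, the 10 described here encode the basement membrane collagens, nidogens and proteoglycans. They were picked by gene symbol, with earlier results of these data known. All 10 were present, and all 10 were among the 15643 genes that passed the filter on low counts. The 8 RNA-seq libraries came from small-intestinal stromal cells of mice that the labels name LTβRfloxPDGFRα/YFP, and this genotype, with the floxed lymphotoxin β receptor gene and YFP, is shared by both groups. What drives YFP in these mice is not stated in the labels. The cells were YFP+ and lacked CD45 and CD31, and sorting on the surface receptor PDGFRα gave the PDGFRα- and the PDGFRα+ group, each with libraries 1 to 4. Neither the age of the mice nor the number of animals behind a library is stated there, and the p-values therefore reflect variation among libraries that could be technical.

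Collagen IV is the network collagen of basement membranes and is assembled as trimers of alpha chains. The chains of Col4a1 and Col4a2 form the most widespread trimer, and those of Col4a5 and Col4a6 form another, known among other places from the basement membranes of smooth muscle. Laminins form a second network, and nidogens, made from Nid1 and Nid2, bind laminin and collagen IV. Perlecan (Hspg2) and agrin (Agrn) are large proteoglycans with heparan sulfate chains. Collagens XV (Col15a1) and XVIII (Col18a1) are related proteoglycan collagens of the basement membrane zone, and the carboxy-terminal fragment of collagen XVIII is known as endostatin.

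The chain genes of collagen IV lie head to head in pairs, and the start regions are shown because partner genes are compared below. In RefSeq on GRCm38.p6 and in GENCODE M21, Col4a2 on the plus strand starts at 11312805 and Col4a1 on the minus strand at 11312826 of chromosome 8, so that their first exons share 22 bases. That stretch, with 4 bases on each side, lies at chr8:11312801-11312830 and is written on the plus strand with the shared bases in capitals.
Col4a1-Col4a2 start region: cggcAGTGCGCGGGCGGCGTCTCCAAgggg
The Col4a6 and Col4a5 starts on chromosome X are 1308 bases apart in GENCODE M21. Their upstream stretches, each on the strand of its gene, are chrX:141474077-141474326 (minus) and chrX:141475169-141475384 (plus). In these and the sequences that follow, capitals mark letters of any of 4 promoter motifs, searched on both strands and spelled out beside their counts.
Col4a6 upstream: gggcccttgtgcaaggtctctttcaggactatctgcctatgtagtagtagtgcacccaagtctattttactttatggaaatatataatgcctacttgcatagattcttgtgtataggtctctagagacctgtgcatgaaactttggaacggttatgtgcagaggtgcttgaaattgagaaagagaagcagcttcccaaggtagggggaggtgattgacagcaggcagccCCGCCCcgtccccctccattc
Col4a5 upstream: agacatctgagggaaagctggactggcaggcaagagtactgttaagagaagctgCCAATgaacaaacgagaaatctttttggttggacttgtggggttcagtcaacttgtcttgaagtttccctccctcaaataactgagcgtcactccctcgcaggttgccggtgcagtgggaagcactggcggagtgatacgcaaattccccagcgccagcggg
For the collagen XVIII and XV genes the stretches are chr10:77166549-77166780 (minus, the most upstream of the RefSeq starts) and chr4:47207762-47208011 (plus).
Col18a1 upstream: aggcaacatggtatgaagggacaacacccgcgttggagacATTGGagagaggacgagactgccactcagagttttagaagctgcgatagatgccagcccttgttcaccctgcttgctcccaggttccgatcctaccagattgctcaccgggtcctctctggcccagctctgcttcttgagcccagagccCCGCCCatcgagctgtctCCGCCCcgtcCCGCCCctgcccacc
Col15a1 upstream: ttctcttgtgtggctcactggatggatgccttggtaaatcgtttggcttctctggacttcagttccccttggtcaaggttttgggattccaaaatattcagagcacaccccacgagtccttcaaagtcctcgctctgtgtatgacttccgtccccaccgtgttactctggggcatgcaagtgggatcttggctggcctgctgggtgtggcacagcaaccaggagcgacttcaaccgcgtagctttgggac
RefSeq windows from 250 bases before to 50 after a start were at hand for 9 of the 10 members, 11 windows in all, of which those of Col4a1 and Col4a2 overlap. The GC box, searched as GGGCGG, was in 9 of 11 windows, against 35.7% of 32851 windows of that length for all genes. The letters CCAAT were in 5 of 11 windows (37.4% of all). The TATA motif, searched as TATAAA, was in 0 of 11 (13.6% of all). The AP-1 motif, searched as TGANTCA, was in 0 of 11 (7.81% of all). The Col15a1 window held none of the 4 motifs. These are matches of letters and nothing more.

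Total counts per library ran from 12926651 to 26900320 in the PDGFRα- group and from 13014118 to 35115771 in the PDGFRα+ group. Levels are counts per 1e+06 (CPM) of library size after TMM scaling, and genes are set against each other only as CPM per kb of exon length. RNA of the sorted marker, Pdgfra, averaged 652 CPM in PDGFRα- and 597 CPM in PDGFRα+ libraries and was not called (edgeR adjusted p = 0.971). Reads could also come from other cells, so marker lists were summed in each library. The 8 fibroblast markers summed to 119098 to 168828 CPM in PDGFRα- and 88564 to 114231 CPM in PDGFRα+ libraries, 10 endothelial markers to 86.2 to 766 and 74.9 to 192, 8 pericyte markers to 844 to 1605 and 696 to 1254, and 8 smooth muscle markers to 411 to 1848 and 501 to 1594. The 6 enteric glia markers summed to at most 18.3 CPM, 6 epithelial to 25.9, 7 leukocyte to 45.5, 4 mesothelial to 13.4 and 3 of interstitial cells of Cajal to 37.4 in any library. Among the pericyte markers only Higd1b was at 0 in every library, and Rgs5, at 561 to 1467 CPM, made up most of the sum in each. The leukocyte marker Itgam has 2 identifiers in the table, of which the one in the sum was at 0 in every library and the other, left out of it, had 0 to 48 counts, and 68.7% of the exon length of the first is shared with Gm49368 on the same strand, so its 0 may not measure the gene. The highest endothelial sum, 766 CPM, was in PDGFRα- library 4, and the others lay at or under 192. In sorted bulk RNA, fewer cells of a type and less RNA per cell cannot be told apart.

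The 10 genes spanned a wide range of levels, and collagen IV chains led. Their order was Col4a1, Col4a2, Col15a1, Nid1, Hspg2, Col18a1, Nid2, Col4a5, Agrn and Col4a6, and it was the same with the length of the longest transcript in place of all exons. Col4a1 averaged 458 CPM per kb over the 8 libraries (345 to 623) and Col4a2 344 (291 to 442), with Col4a1 above Col4a2 in 8 of 8 libraries. These 2 chains made up 58.7% to 63.4% of the CPM per kb of all 10 genes in each library. The neighbours Col15a1 (165) and Nid1 (141) were not separated, with Col15a1 the higher in 4 of 8 libraries, nor were Col4a5 (12.3) and Agrn (10.9), with Col4a5 the higher in 5 of 8. Hspg2 (108) exceeded Col18a1 (77.6) in 6 of 8, and Nid2 (18.5) exceeded Col4a5 in 6 of 8. Col4a6 was lowest at 0.786 CPM per kb (0.111 to 1.59) and below Agrn in every library.

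**Figure D1:**
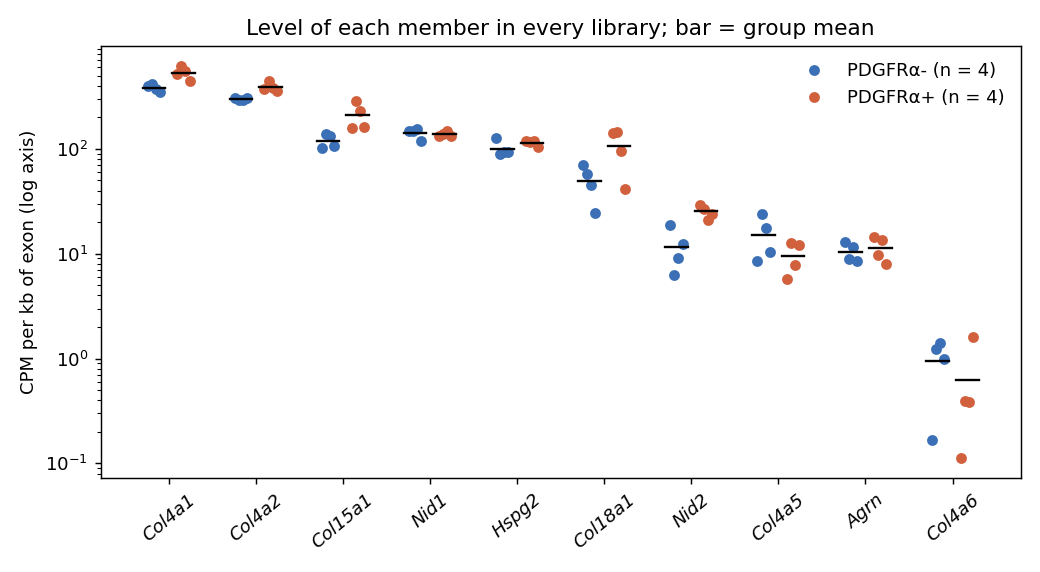
Level of each of the 10 genes in CPM per kb of exon (log axis), 1 point per library (blue PDGFRα-, red PDGFRα+, n = 4 each) and a bar at each group mean, in the order of the mean over all libraries. Col4a1 and Col4a2 stand highest in both groups, Col4a6 lowest, and the groups do not overlap for Col4a1, Col4a2, Col15a1 and Nid2.

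The comparison of the fractions asks how PDGFRα+ and PDGFRα- stromal cells differ in these genes. No member passed the unpaired edgeR test at an adjusted p of 0.05 in either direction, while 5 of 10 were higher at an unadjusted p under 0.05 (3.73% of all 15643 genes) and 0 lower (3.22%). After adjustment the test called 0.192% of all genes as higher and 0.0511% as lower. With the replicate number as a block, edgeR called 4 of 10 as higher (1.34% of all genes) and 0 as lower (0.933% of all genes): Col4a1, Nid2, Col15a1 and Col18a1. The authors' deposited table lists 5 of 10 as higher, the same 4 and Col4a2 (2.3% of its 16785 genes), and 0 as lower (2.52%). The labels do not say what libraries with the same number share, and what can be said of the pairing is in the account of the processing. The median log2 fold change of the 10 was 0.29 in the unpaired and 0.29 in the blocked fit, against -0.01 over all genes in both. In 4 of 10 members every PDGFRα+ library was above every PDGFRα- library (2.69% of all genes) and in 0 below (2.36% of all genes). Of the 10, 5 were higher in the PDGFRα+ library at each of the 4 numbers, against 10.3% of all genes. Because the members were chosen with earlier results of these data known, the contrasts with all genes are descriptions and not independent support.

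**Figure D2:**
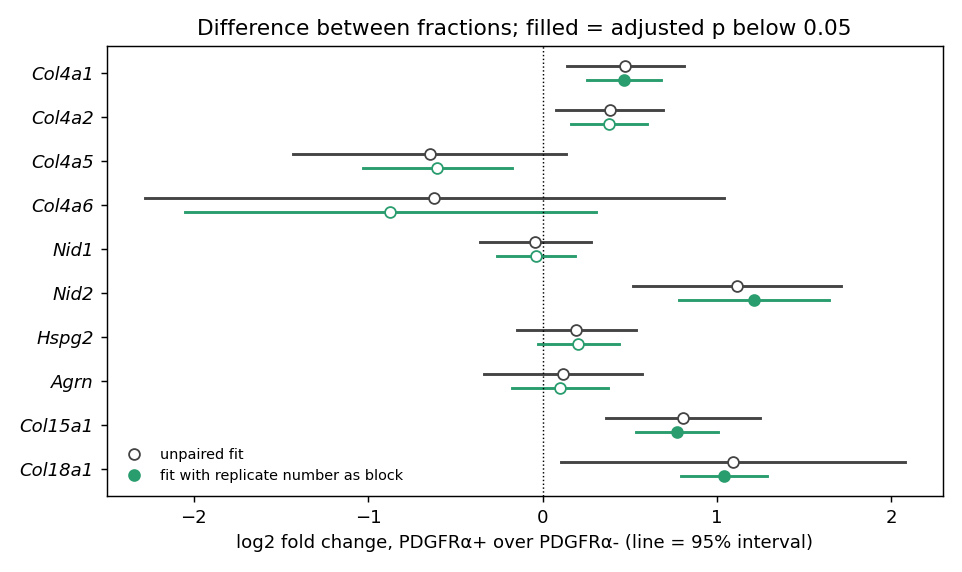
Log2 fold change of each gene, PDGFRα+ over PDGFRα-, with its 95% interval, in the unpaired fit (grey) and the fit with the replicate number as a block (green), filled where the adjusted p is below 0.05. Filled points are found with the block only, for Col4a1 (0.47), Nid2 (1.21), Col15a1 (0.77) and Col18a1 (1.04), and the points of Col4a5 and Col4a6 lie below 0.

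The main collagen IV chain genes had higher means in PDGFRα+ cells, and Col4a1 was called with the block. Col4a1 (ENSMUSG00000031502, chromosome 8, 11198423 to 11312826, GRCm38) was at 2984, 3110.4, 2774 and 2578 CPM in PDGFRα- libraries 1 to 4 and at 3832, 4649, 4150.1 and 3282 CPM in PDGFRα+ libraries 1 to 4. Every PDGFRα+ library was above the highest PDGFRα- library. The means were 2862 ± 234 and 3978 ± 573 CPM (SD, n = 4), a log2 fold change of 0.48 ± 0.16 (SE, unpaired edgeR adjusted p = 0.393) and of 0.47 ± 0.10 with the block (adjusted p = 0.0202). The blocked call of Col4a1 was not made without number 1 (log2 fold change 0.50, adjusted p = 0.0526) or number 3 (0.43, adjusted p = 0.229).

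Col4a2 (ENSMUSG00000031503, chromosome 8, 11312805 to 11449287), its usual partner chain, was at 2020.2, 1941, 1925 and 2006 CPM in PDGFRα- and at 2476, 2923, 2547 and 2361 CPM in PDGFRα+ libraries 1 to 4. The groups again did not overlap, and PDGFRα- libraries lay within a narrow band. The log2 fold change was 0.39 ± 0.14 (SE, unpaired edgeR adjusted p = 0.482) and 0.38 ± 0.10 with the block (adjusted p = 0.0687), while the authors' deposited table lists it at 0.369 with an adjusted p of 0.00806. Before adjustment the unpaired edgeR p was 0.00904 for Col4a1 and 0.0173 for Col4a2 in this model fitted across all genes (adjusted p 0.393 and 0.482).

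The balance between these partner chains differed by less than the spread between libraries. The Col4a1 to Col4a2 ratio per kb was 1.31, 1.42, 1.28 and 1.14 in PDGFRα- and 1.37, 1.41, 1.45 and 1.23 in PDGFRα+ libraries 1 to 4. Library 4 had the lowest ratio of each group, and the groups overlapped. The difference in the mean log2 ratio was 0.09 (two-sided exact permutation test over libraries, p = 0.343, adjusted over 6 ratios 0.686, with 0.0286 the smallest p that 4 against 4 allows). Among 6248 genes with at least 20 CPM, Col4a2 held rank 17 in likeness to Col4a1 by Pearson's r of log2 CPM over the 8 libraries (r = 0.94), and Col4a1 rank 23 in likeness to Col4a2. The 3 genes outside the members most like Col4a1 were Nkx2-3, a homeobox transcription factor gene (r = 0.99), the microtubule-associated protein gene Map4 (0.98) and Glipr2 (0.98). All these correlations share libraries and the difference between the groups, and they are descriptions.

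The other collagen IV chain genes were low, had negative fold changes and were not called. Col4a5 (ENSMUSG00000031274, chromosome X, 141475385 to 141689234) was at 56.7, 159, 119 and 69.0 CPM in PDGFRα- and at 38.9, 85.9, 51.9 and 81.2 CPM in PDGFRα+ libraries 1 to 4. It was lower in the PDGFRα+ library at 3 of 4 numbers, the exception being number 4, and the groups overlapped. The log2 fold change was -0.65 ± 0.35 (SE, unpaired edgeR adjusted p = 0.836) and -0.60 ± 0.20 with the block (adjusted p = 0.172), and without number 4 the blocked value was -0.88 (adjusted p = 0.0110).

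Col4a6 (ENSMUSG00000031273, chromosome X, 141165403 to 141474076) had few reads, namely 33, 196, 143 and 158 counts for PDGFRα- and 31, 77, 96 and 171 for PDGFRα+. In CPM these were 1.34, 9.85, 11.2 and 7.94, and 0.888, 3.15, 3.10 and 12.7, so library 1 was lowest in both groups and the groups overlapped. Its log2 fold change was -0.62 ± 0.77 (SE, unpaired edgeR adjusted p = 0.970), and the 95% interval, -2.28 to 1.04, spans both directions.

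Relative to the main chain gene, Col4a5 had a lower mean in PDGFRα+ cells, which did not pass the test. The Col4a5 to Col4a1 ratio per kb was 0.0211, 0.0568, 0.0477 and 0.0297 in PDGFRα- and 0.0113, 0.0205, 0.0139 and 0.0275 in PDGFRα+ libraries 1 to 4. It was lower in the PDGFRα+ library at 4 of 4 numbers, although the groups overlapped (difference in mean log2 ratio -1.07, two-sided exact permutation p = 0.0571, adjusted over 6 ratios 0.171). The Col4a5 to Col4a6 ratio ran from 7.57 to 51.1 per kb over the 8 libraries and did not separate the groups (exact permutation p = 0.686). Over the 8 libraries Col4a5 correlated with Col4a6 at r = 0.78 and with Col4a1 at r = -0.33 (descriptions). Both X-linked chains were lowest in library 1 of each group. In library 1 the 8 smooth muscle markers were also lowest, at 411 CPM in PDGFRα- and 501 CPM in PDGFRα+, against 1098 to 1848 and 1029 to 1594 in the other libraries. Col4a5 and the marker sum were also both highest in library 2 of each group. Col4a6 was instead highest in PDGFRα- library 3 (11.2 CPM) and PDGFRα+ library 4 (12.7 CPM). The marker sums there were 1098 and 1029 CPM. The part of smooth muscle RNA in these levels was not tested.

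**Figure D3:**
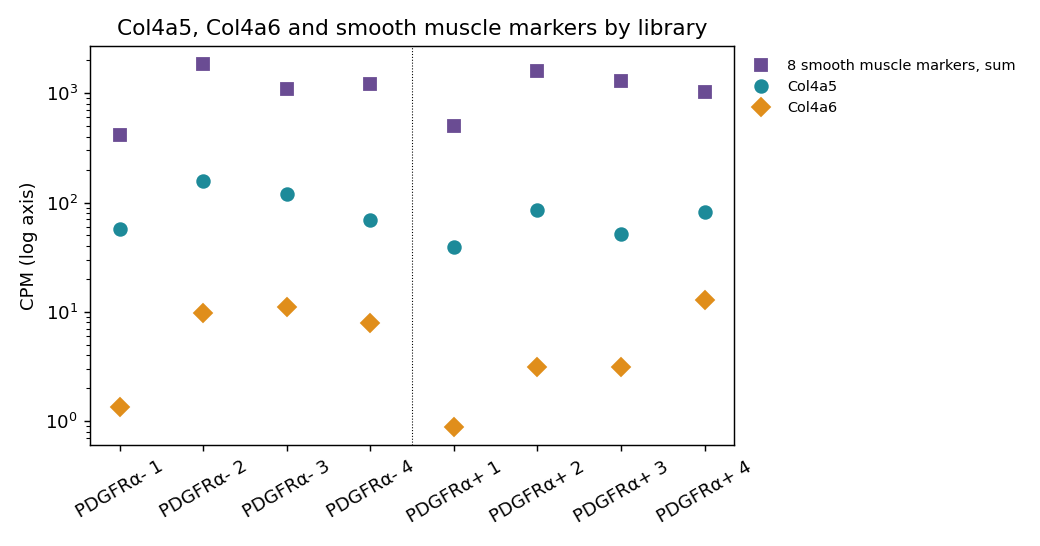
CPM on a log axis of Col4a5, Col4a6 and the sum of 8 smooth muscle markers in each of the 8 libraries, PDGFRα- left and PDGFRα+ right of the dotted line. Library 1 of each group is lowest for all 3 series, with Col4a6 at 1.34 and 0.888 CPM.

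Of the nidogen genes, Nid2 was called with the block and Nid1 was not. Nid1 (ENSMUSG00000005397, chromosome 13, 13437551 to 13512269), the more abundant, was at 1038, 1035, 1069 and 824 CPM in PDGFRα- and at 929.7, 970.0, 1032 and 924 CPM in PDGFRα+ libraries 1 to 4. The groups overlapped almost wholly. Its log2 fold change was -0.04 ± 0.15 (SE, unpaired edgeR adjusted p = 0.993) and its 95% interval ran from -0.36 to 0.28.

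Nid2 (ENSMUSG00000021806, chromosome 14, 19751265 to 19811787) was at 96.6, 32.4, 47.6 and 64.7 CPM in PDGFRα- and at 152, 138, 109 and 124 CPM in PDGFRα+ libraries 1 to 4. All PDGFRα+ libraries were above all PDGFRα- libraries, and the ratio within a number ran from 1.58 to 4.25. The means were 60.3 ± 27.5 and 131 ± 18.5 CPM (SD, n = 4). The log2 fold change was 1.12 ± 0.28 (SE, unpaired edgeR adjusted p = 0.182) and 1.21 ± 0.20 with the block (adjusted p = 0.00613). Without number 3 the blocked log2 fold change of Nid2 was 1.22, but the call was lost (edgeR adjusted p = 0.0871). That fit called 77 of all 15696 genes higher and 22 lower. In the unpaired fit Nid2 was called without PDGFRα- library 1 (log2 fold change 1.44, adjusted p = 0.0283). Of the exon length of Nid2, 8.45% overlaps Rtraf on the other strand, and whether the counting used strand is not stated in the labels.

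Because both nidogens were counted in the same library, their ratio does not depend on scaling. Nid2 per kb was 0.1248, 0.0421, 0.0598 and 0.105 times Nid1 in PDGFRα- and 0.220, 0.191, 0.142 and 0.180 times Nid1 in PDGFRα+ libraries 1 to 4. The groups did not overlap, and the ratio was 2.39-fold higher in PDGFRα+ cells (two-sided exact permutation p = 0.0286, the smallest possible, adjusted over 6 ratios 0.171, higher at 4 of 4 numbers). In every library Nid1 thus remained the predominant nidogen RNA. By likeness to Nid1 over the libraries, Nid2 held rank 4530 of 6248 genes (r = -0.28).

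**Figure D4:**
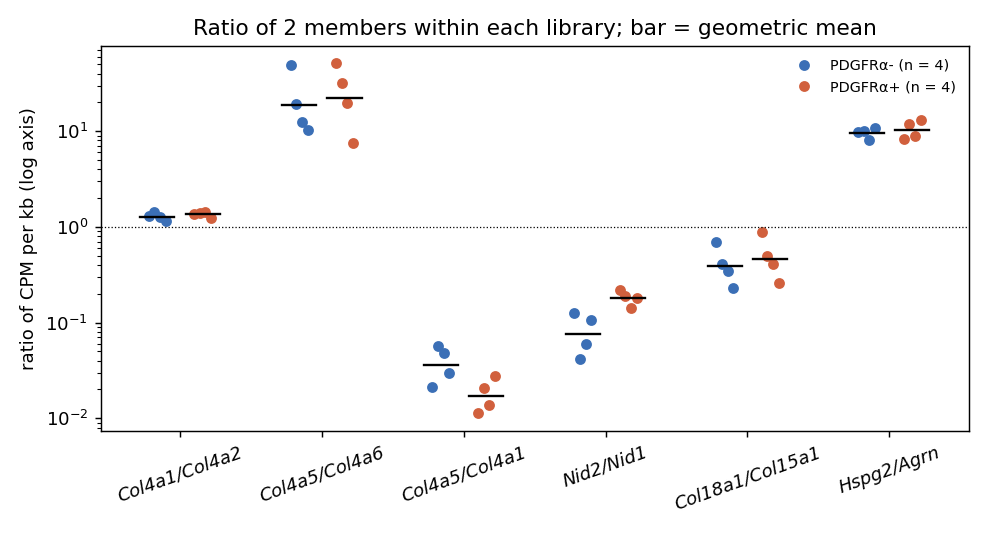
Ratio of CPM per kb of 6 pairs of members within each library (log axis; blue PDGFRα-, red PDGFRα+, n = 4 each; bar, geometric mean; dotted line, equal levels). The Nid2 to Nid1 ratio is the one pair whose groups do not overlap, and the Col4a1 to Col4a2 ratio varies least, between 1.14 and 1.45.

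The core protein genes of perlecan and agrin were called in neither fit. Hspg2 (ENSMUSG00000028763, chromosome 4, 137468769 to 137570630) was at 1805, 1279.9, 1339 and 1328 CPM in PDGFRα- and at 1719, 1676, 1703 and 1481 CPM in PDGFRα+ libraries 1 to 4. PDGFRα- library 1 was the highest of all 8 libraries, and the other 3 of its group lay below every PDGFRα+ library. The log2 fold change was 0.19 ± 0.16 (SE, unpaired edgeR adjusted p = 0.937) and 0.21 ± 0.11 with the block (adjusted p = 0.507), with a blocked 95% interval from -0.03 to 0.44.

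Agrn (ENSMUSG00000041936, chromosome 4, 156165290 to 156197488) was at 119.6, 82.4, 108 and 79.5 CPM in PDGFRα- and at 134, 90.7, 125 and 73.7 CPM in PDGFRα+ libraries 1 to 4. Libraries 1 and 3 were the higher ones of both groups. Its log2 fold change was 0.12 ± 0.21 (SE, unpaired edgeR adjusted p = 0.982), and the 95% interval was -0.33 to 0.57. Per kb, Hspg2 exceeded Agrn 8.04-fold to 13.04-fold in the 8 libraries, and the ratio was not separated between the groups (exact permutation p = 0.543).

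Both proteoglycan collagen genes were higher in PDGFRα+ cells with the block. Col15a1 (ENSMUSG00000028339, chromosome 4, 47208161 to 47313167) was at 652, 884, 841 and 673 CPM in PDGFRα- and at 1012, 1825, 1472 and 1023 CPM in PDGFRα+ libraries 1 to 4. The groups did not overlap, and libraries 2 and 3 were the higher ones in both. The means were 762 ± 117 and 1333 ± 392 CPM (SD, n = 4). The log2 fold change was 0.81 ± 0.21 (SE, unpaired edgeR adjusted p = 0.193) and 0.77 ± 0.11 with the block (adjusted p = 0.00103), and the blocked call was kept without each number in turn. Unpaired DESeq2 also called it (adjusted p = 0.0315), as it did Nid2 (0.0224).

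Col18a1 (ENSMUSG00000001435, chromosome 10, 77052178 to 77166548) was at 498, 404, 319.9 and 169.8 CPM in PDGFRα- and at 999, 1011, 664 and 291 CPM in PDGFRα+ libraries 1 to 4. PDGFRα+ library 4 was below PDGFRα- libraries 1, 2 and 3, so the groups overlapped, yet library 4 was also the lowest PDGFRα- library. Within a number the PDGFRα+ library was 2.01-fold, 2.50-fold, 2.07-fold and 1.72-fold higher for numbers 1 to 4. The log2 fold change was 1.09 ± 0.43 (SE, unpaired edgeR adjusted p = 0.636) and 1.04 ± 0.12 with the block (adjusted p = 0.000138), and the blocked call was kept without each number. RefSeq lists more than 1 start for Col18a1, and counts over the whole gene do not tell its transcripts apart.

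Although both were called with the block, the 2 genes differed in which libraries were high. The Col18a1 to Col15a1 ratio per kb was 0.690, 0.414, 0.344 and 0.228 in PDGFRα- and 0.893, 0.501, 0.408 and 0.258 in PDGFRα+ libraries 1 to 4. Its order over the numbers was the same in both groups, and the ratio was higher in the PDGFRα+ library at 4 of 4 numbers, although the groups overlapped (difference in mean log2 ratio 0.27, two-sided exact permutation p = 0.657, adjusted over 6 ratios 0.686). Over the 8 libraries the 2 genes correlated at r = 0.68, and Col15a1 with Col4a1 at r = 0.93 (descriptions). The genes outside the members most like Col18a1 were Hadha, a gene of mitochondrial fatty acid oxidation (r = 0.99), Srpx2 (0.98) and the profilin gene Pfn1 (0.98).

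**Figure D5:**
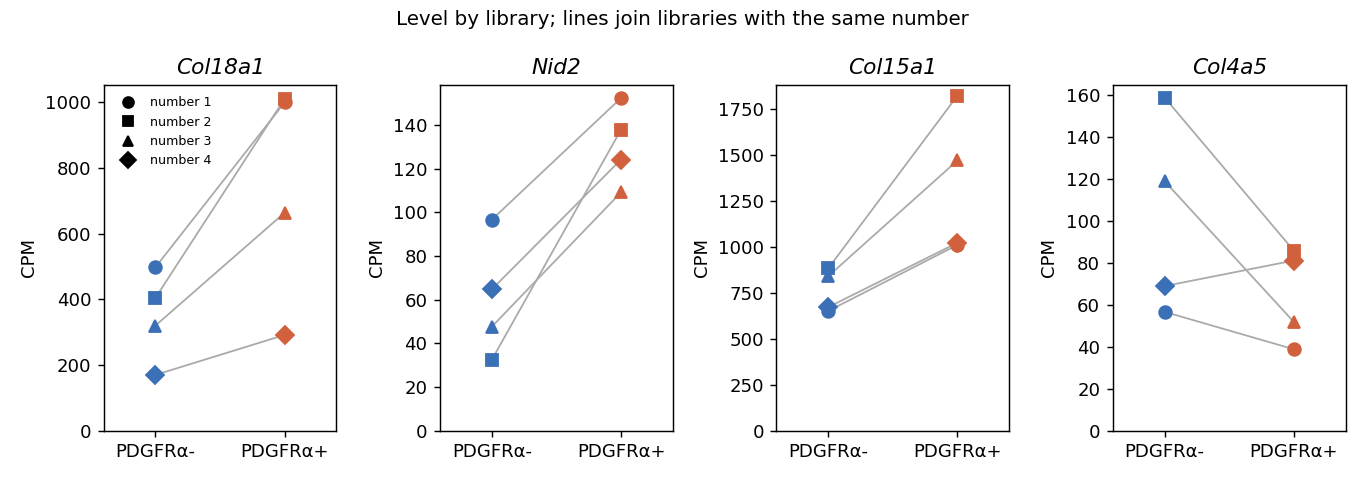
CPM of Col18a1, Nid2, Col15a1 and Col4a5 by group, with lines joining the libraries that carry the same number. The first 3 genes are higher in PDGFRα+ at all 4 numbers, Col18a1 from different starting levels (169.8 to 498 CPM), and Col4a5 is lower at 3 of 4.

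As a sum, the members accounted for 0.784% to 0.850% of a library's counts among PDGFRα- samples, and for 0.999% to 1.41% among PDGFRα+ samples, without overlap. Col4a1 made up 32.2% to 34.8% of that sum in the PDGFRα- and 33.9% to 35.0% in the PDGFRα+ group, and Nid1 10.6% to 12.5% and 7.25% to 9.57%. Of the 8 fibroblast markers, 0 were called in the unpaired fit. With the block 0 were higher (1.34% of all genes) and 4 lower (0.933%), namely Col1a1, Col1a2, Col3a1 and Dpt. The part of these markers in the members' shares was not tested. The unpaired fit called 0 of the endothelial, pericyte and smooth muscle markers. The blocked fit called 0 of 8 endothelial, 1 higher (Cspg4) and 1 lower (Abcc9) of 7 pericyte, and 1 higher (Myocd) of 8 smooth muscle markers. In the authors' deposited table the endothelial markers Tek (DESeq2 adjusted p = 0.0238) and Kdr (0.0331) are lower. The smooth muscle marker Actg2 (0.0464) and the fibroblast marker Dcn (0.0074) are lower there as well. Another smooth muscle marker, Myocd, is higher there (fold change 2.304, DESeq2 adjusted p = 8.8e-09). Without PDGFRα- library 4, which had the high endothelial sum, the unpaired log2 fold changes were 0.43 for Col4a1, 1.15 for Nid2, 0.76 for Col15a1 and 0.87 for Col18a1. That fit called 0 members in either direction (39 higher and 9 lower of all 16349 genes), and the part of endothelial RNA in these differences was not tested.

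Laminin chains, the partner network, are the nearest family. Of 11 chains tested 0 were called in the unpaired fit (0.192% of all genes higher, 0.0511% lower). With the block 3 were higher (1.34% of all genes) and 0 lower (0.933%). The median log2 fold change was 0.44 unpaired and 0.40 blocked, against -0.01 over all genes in both. The alpha chain genes Lama1 (37.8 ± 25.4 and 147 ± 55.1 CPM, SD, n = 4) and Lama4 (351 ± 74.4 and 564 ± 127 CPM) and the beta chain gene Lamb1 (1084 ± 66.8 and 1677 ± 142 CPM) were called with the block (edgeR adjusted p = 0.000477, 0.0144 and 0.00486). Lamc1, the gamma chain gene, was at 1210.0 ± 17.7 and 1607 ± 163 CPM (blocked edgeR adjusted p = 0.0531), and Lama2 at 2028 ± 313 and 2222 ± 256 CPM (blocked adjusted p = 0.690). The authors' deposited table lists Lamc1 as higher (fold change 1.313, DESeq2 adjusted p = 0.00339). Without number 3 the blocked fit called 1 laminin chain (77 of all 15696 genes higher, 22 lower). Without number 1 it called 2 (124 of all 15749 genes higher, 72 lower).

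Further basement membrane and associated matrix genes went both ways. Of 20 tested, 1 was higher (0.192% of all genes) and 1 lower (0.0511%) in the unpaired fit. With the block 3 were higher (1.34% of all genes) and 3 lower (0.933%). The median log2 fold change was -0.25 unpaired and -0.22 blocked, against -0.01 over all genes in both. Hmcn1, the hemicentin-1 gene, was at 245 ± 28.3 CPM in PDGFRα- and 667 ± 116 CPM in PDGFRα+ libraries (SD, n = 4; log2 fold change 1.44 ± 0.17 SE, unpaired edgeR adjusted p = 0.00253). Ntn4, which encodes a netrin that binds laminin, was at 65.7 ± 10.9 and 26.5 ± 1.42 CPM (log2 fold change -1.31 ± 0.19 SE, unpaired edgeR adjusted p = 0.0111). With the block the matrilin gene Matn2 (log2 fold change 0.63) and the fibulin gene Fbln2 (0.58) were also higher, and the calcium-binding matrix protein genes Smoc2 (-0.77) and Sparc (-0.46) lower. Without library 3 of either group the unpaired fit called 0 of these genes as lower, Ntn4 included, and 0 of all genes. Without number 3 the blocked fit called 1 higher and 1 lower (77 and 22 of all 15696 genes). Hmcn2, the paralogue of Hmcn1, was at 3547 ± 165 and 3885 ± 385 CPM (unpaired edgeR adjusted p = 0.970). Exons of Hmcn1, Matn2 and Lama2, and of Ddr2 named next, overlap genes on the other strand.

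Genes for making collagen IV and for binding basement membranes showed few calls. Of 14 biosynthesis and crosslinking genes 0 were called in either fit (edgeR; before adjustment 2 higher and 1 lower unpaired, and 4 higher and 2 lower blocked, were under 0.05, against 3.73% and 3.22%, and 5.93% and 5.73%, of all genes; unpaired limma-voom and DESeq2 called 0), with a median log2 fold change of 0.02 and 0.06. The blocked fit without number 1 called 1 of them higher (124 of all 15749 genes). The authors' deposited table lists Pxdn, the peroxidasin gene, as higher (fold change 1.372, DESeq2 adjusted p = 0.00947). The collagen chaperone gene Serpinh1 was at 1444 ± 677 and 1369 ± 466 CPM and P4hb, a prolyl hydroxylase subunit gene, at 511 ± 165 and 555 ± 153 CPM (SD, n = 4). The 17 receptor genes had a median log2 fold change of -0.01 unpaired and 0.26 blocked. Of them 0 were called unpaired, and with the block 0 were higher (1.34% of all genes) and 1 was lower (0.933%). That gene was Musk, a receptor kinase known for agrin signalling at the neuromuscular junction, at 140.1 ± 33.2 and 80.8 ± 12.9 CPM (blocked edgeR adjusted p = 0.0088, unpaired 0.161), and it was not called in the blocked fit without number 1 or number 3. The integrin beta chain gene Itgb1 was at 614 ± 37.4 and 766 ± 56.1 CPM (blocked edgeR adjusted p = 0.172) and the collagen receptor gene Ddr2 at 386 ± 80.7 and 383 ± 49.2 CPM (blocked edgeR adjusted p = 0.993).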

How the data were processed

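Per the labels' protocols, RNA of sorted cells went into a stranded low-input library kit. The submitters' processing notes name GRCm38 (mm10) and the programs STAR 2.7.3a, featureCounts 2.0.1, cutadapt 3.4 and DESeq2, and give neither strand setting nor annotation. The authors deposited whole-number raw counts per gene and library, a score that is a size-factor-scaled rounded count (not used in tests), group means of that score, dispersions, a fold change as a ratio and as log2, and a p-value with its adjusted value.

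All 53801 rows name a gene, and 53620 identifiers are in GENCODE M21 (GRCm38), the source of positions and exon lengths. Promoter windows are from RefSeq. No libraries were identical (chi-square per degree of freedom 38.7 to 169 between pairs). Groups were compared with edgeR 4.0.16 in R 4.3.3 (quasi-likelihood, robust, TMM, filterByExpr, Benjamini-Hochberg over 15643 genes), group as the only term. The SE is the log2 fold change over the square root of the F statistic. Alternatives used a replicate block, DESeq2 1.42.0, limma-voom (limma 3.58.1), DESeq2 size factors, no filter, and libraries left out. Ratios used counts plus 0.5 and an exact permutation test. The edgeR step was run on simulated counts, and the permutation step was checked on small made-up inputs with known results. Reads amplified by PCR and lacking molecular identifiers do not count molecules independently.

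Deviations from the group means of same-numbered libraries correlated at 0.23, 0.18, 0.02 and 0.25 for numbers 1 to 4 (log2 CPM, prior count 2), the third under the 0.1 required of every pair. As hints from the data, the same-numbered library was the best match for 7 of 8 libraries, and edgeR found 669 genes to differ between numbers (adjusted p under 0.05). The labels do not say that numbers pair libraries, so the unpaired fit stayed the main one. Blocked values are nevertheless shown, because a DESeq2 model with both number and group gives dispersions within 0.000873% of the authors' deposited ones, while group alone departs by up to 7498%. The members, lists and ratios were chosen with earlier results of these data known. Named list genes are those past adjusted p 0.05 in either fit and the 2 with the highest mean CPM of each list. For this choice CPM was not divided by exon length. Genes alike in pattern are the top 3 by Pearson's r among those with at least 20 CPM.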

Additional observations from a re-analysis of the deposited data

Results flagged for a closer look

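Groups of 4 libraries were checked for a single library far from the others, which chance alone gives in about 1 of 20 groups, and 20 groups (10 genes in 2 fractions) were checked. Nid1 in PDGFRα- library 4 stood at 824 CPM, below the other 3 at 1035 to 1069 CPM. Hspg2 in PDGFRα- library 1 stood at 1805 CPM, above the other 3 at 1279.9 to 1339 CPM.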

How the results depend on the processing

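The count of members called higher was 0 in the unpaired edgeR fit and also with DESeq2 size factors and limma-voom, but 2 with DESeq2 and 2 with no filter (Nid2 and Col15a1), and 4 with the replicate block. Leaving out 1 library gave 0 to 1 in the unpaired fit, and leaving out 1 number gave 2 to 4 in the blocked fit. The count lower was 0 except for 1 in the blocked fit without number 4. Of the genes in the 4 other lists, 1 was called higher in the unpaired fit, 3 with DESeq2, 5 with no filter, 6 with the replicate block and 2 to 6 there without 1 number. Over all genes 30 were called higher and 8 lower in the unpaired fit, 209 and 146 with the block, 156 and 116 with DESeq2, and 167 and 110 with no filter. With 1 library left out, the unpaired fit called 7 to 39 of all genes higher and 0 to 11 lower (16262 to 16573 tested). Without number 1, 2, 3 or 4 the blocked fit called 124, 178, 77 and 185 of all genes higher. It called 72, 103, 22 and 115 lower (15696 to 16243 tested). Of the list genes, called lower were 1 (unpaired), 2 (DESeq2), 3 (no filter), 4 (block) and 1 to 4 (block without 1 number), and 0 to 2 in the unpaired fit without 1 library. The log2 fold changes of Col4a1, Col4a2, Nid2, Col15a1, Col18a1 and Hspg2 stayed positive, and those of Col4a5 and Col4a6 negative, in all 17 alternatives. That of Nid1 turned to 0.0051 (blocked, without number 1) and 0.0016 (without PDGFRα- library 3), and ranged from -0.12 to 0.0016 with 1 library left out. That of Agrn turned to -0.013 without PDGFRα+ library 1, in a range from -0.013 to 0.26. Differences in log2 ratio ranged, with 1 library left out, from -0.15 to 0.77 for Col4a5 to Col4a6, -0.047 to 0.55 for Col18a1 to Col15a1 and -0.0034 to 0.21 for Hspg2 to Agrn, changing sign in each, and kept their sign for the other 3. With 4 pairs the paired test of ratios cannot pass 0.05. After adjustment over 6 ratios, the unpaired test can pass it only if several ratios reach the smallest p, 0.0286. The cause of these changes was not tested. Depth limits Col4a6 most, with 31 to 196 counts per library.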
